A study of Homo sapiens with 8 samples.

Results

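TFIIH is a general transcription factor of RNA polymerase II, and its 10 genes were followed here by RNA-seq in the multiple myeloma (MM) lines JJN3 and H929 after exposure to THZ1, a covalent inhibitor of the CDK7 kinase. The members were given by symbol: CDK7, CCNH, MNAT1, ERCC2, ERCC3, GTF2H1, GTF2H2, GTF2H3, GTF2H4 and GTF2H5, 10 of the 63677 genes in the count tables. JJN3 and H929 are established human MM lines, and each stands for 1 tumour. Cells received THZ1 at 50 nM or its vehicle DMSO for 24 h, with 2 libraries for each line and treatment and 8 in all. Nothing in the labels says that the 2 libraries of a group came from separate cultures, so p-values measure the spread between these libraries, which may be technical.

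TFIIH joins the preinitiation complex late. Its core unwinds promoter DNA for transcription and opens DNA around a lesion in nucleotide excision repair. ERCC3 (XPB) is the translocase and ERCC2 (XPD) the iron-sulfur helicase of that core, and GTF2H1 (p62), GTF2H2 (p44), GTF2H3 (p34), GTF2H4 (p52) and GTF2H5 (p8) form its scaffold and regulate both enzymes. The CDK-activating kinase is the module made of the kinase CDK7, its cyclin CCNH (cyclin H) and the assembly factor MNAT1 (MAT1), and it phosphorylates the C-terminal domain of RNA polymerase II and the T-loops of other cyclin-dependent kinases. THZ1 binds the CDK7 protein, so the RNA levels below are no measure of kinase activity, which was not measured in these libraries.

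Before any comparison, the libraries were checked against their labels. Total counts lay between 17476443 and 19194371 per library, and a floor of 3 counts corresponded to 0.156 to 0.172 CPM (counts scaled to the library total), a limit for counting error only. Of the counts on immunoglobulin light chain V genes, the lambda genes took 98.0% and 99.99% under the H929 DMSO label, but 0.194% and 0.203% under the H929 THZ1 label. In the 4 JJN3 libraries this share was 0.244% to 0.369%. A clonal plasma cell line usually makes a single light chain, and under the H929 labels treatment and origin of the cells cannot be told apart. Replicate 2 of H929 DMSO also held 597 kappa V counts, against 3 in replicate 1. The rest of the check concerned cell type. All 8 plasma cell markers were at 1 CPM or more in 7 libraries, and in replicate 1 of H929 DMSO 7 of 8 were, with SLAMF7 at 0.107 CPM. SLAMF7 was at 9.65 CPM in replicate 2 of H929 DMSO and at 485.4 and 501.7 CPM under the H929 THZ1 label. The summed level of the 8 markers was 2089 to 2125 CPM in JJN3 DMSO and 1387 to 1411 CPM in JJN3 THZ1. It was 1762 to 1921 CPM in the H929 DMSO label and 7072 to 7160 CPM in the H929 THZ1 label. Under the H929 THZ1 label MZB1 (350.0 and 382.1 against 185.6 and 175.9 CPM) and CD38 (96.5 and 91.7 against 65.9 and 64.0 CPM) were lower. The other markers were higher there. In JJN3, PRDM1 was higher with THZ1 (175.9 and 159.9 against 229.5 and 210.1 CPM), CD38 overlapped and the others were lower. Of markers of other cell types, the B cell gene MS4A1 was at most 3.77 CPM and the monocyte, erythroid and collagen genes were at most 3.99 CPM in any library. The epithelial gene EPCAM was at 64.7 to 127.5 CPM in 6 libraries and at 0.0543 and 0.328 CPM under the H929 THZ1 label, and KRT8 was at 6.49 and 7.46 CPM under the H929 DMSO label and at most 0.572 CPM elsewhere. The T cell gene CD3E was at 34.7 and 35.6 CPM under the H929 THZ1 label and at most 4.29 CPM elsewhere, while CD3D was at most 0.222 CPM throughout. The part of these genes in the differences between the H929 labels was not tested. The mitochondrial share of counts was 1.65% and 3.36% in JJN3 DMSO and 5.34% and 6.63% in JJN3 THZ1, and its part in the JJN3 results was not tested.

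As far as mapping and depth go, counts can be read for 8 of the 10 members, and those of GTF2H2 and GTF2H4 are uncertain. Genes that overlap a member are a further limit, given below. The files hold only reads that map to a single place. GTF2H2 lies in the duplicated region of chromosome 5 (GRCh37 5:70330843-70363516, minus strand), and 93.9% of the 50-base windows of its canonical transcript were also found in its copies, among them GTF2H2C and the pseudogene GTF2H2B. For CDK7 this share was 6.39%, all in the pseudogene CDK7P1, and for the other members it was at most 2.78%. GTF2H4 (GRCh37 6:30875984-30881883) had 0 to 8 counts per library, and 5 further identifiers with its symbol had 0 counts. GTF2H4 passed the filter on low counts in no comparison, and why its counts were so low was not tested. CDK7 (GRCh37 5:68530622-68573257) lies on chromosome 5 too, 1832894 bases from the start of GTF2H2 to its own start. The start of CCNH (GRCh37 5:86614233-86708747, minus strand) lies 18178125 bases from that of CDK7.

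Per length of merged exons, the genes of the CDK-activating kinase and the scaffold genes GTF2H1 and GTF2H3 stood above ERCC3 and ERCC2 in JJN3. In RPKM (CPM divided by the merged exon length in kilobases), JJN3 DMSO had CCNH at 14.2 ± 0.465 (SD, n = 2 here and below), GTF2H1 at 13.2 ± 0.178, MNAT1 at 12.1 ± 0.0826, GTF2H3 at 10.5 ± 0.600 and CDK7 at 10.4 ± 0.737. The values of GTF2H3 and CDK7 overlapped between libraries. ERCC3 followed with 5.82 ± 0.244 RPKM, ERCC2 with 4.45 ± 0.0633 and GTF2H5 with 2.59 ± 0.152. GTF2H2 was listed at 0.520 ± 0.134 RPKM and GTF2H4 at 0.0773 ± 0.0151, both with the limits given above. These values depend on the length used. With the longest transcript in place of merged exons, JJN3 DMSO had CCNH at 35.5 RPKM, GTF2H1 at 30.4, MNAT1 at 17.7 and CDK7 at 17.3, and GTF2H3 (12.1 and 13.1) overlapped with ERCC3 (11.8 and 12.5).

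The promoters of all 10 members were matched in RefSeq (GRCh38.p14, the first entry of each gene, 250 bases before to 50 after its start). They had 13 (MNAT1) to 35 (GTF2H5) CpG in 300 bases with a median of 28, against a median of 14 over the 27305 promoters of the table. The letters GGGCGG (SP1) were found on either strand in 7 of 10 promoters, against 44.6% of all promoters. CCGGAAG (ETS) was found in 4 of 10, those of ERCC3, GTF2H1, GTF2H2 and GTF2H3, against 10.7% of all promoters. CCAAT (NFY) was found in the promoters of ERCC2 and GTF2H4, against 35.7% of all promoters. TATAAA, the TATA box, was found in none of the 10, against 12.0% of all promoters. GCATGCGC, for NRF1, was also found in none, against 3.27% of all promoters. The shares over all promoters include genes whether expressed here or not, and were not matched for CpG. No hits overlapped in the members' promoters, and a match of letters is a description and not a bound site.

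Shown are the promoters of CDK7 and CCNH, which differed in opposite directions between the H929-labelled libraries. Also shown are those of ERCC3 and GTF2H3, the members with well-mapped reads that were called lower in JJN3. Capitals mark the SP1 and ETS letters on either strand. They lie at chr5:69234636-69234935 on the plus strand (CDK7), chr5:87412881-87413180 on the minus strand (CCNH), chr2:127294095-127294394 on the minus strand (ERCC3) and chr12:123633579-123633878 on the plus strand (GTF2H3), all in GRCh38.p14 and written 5′ to 3′ along the gene.
CDK7: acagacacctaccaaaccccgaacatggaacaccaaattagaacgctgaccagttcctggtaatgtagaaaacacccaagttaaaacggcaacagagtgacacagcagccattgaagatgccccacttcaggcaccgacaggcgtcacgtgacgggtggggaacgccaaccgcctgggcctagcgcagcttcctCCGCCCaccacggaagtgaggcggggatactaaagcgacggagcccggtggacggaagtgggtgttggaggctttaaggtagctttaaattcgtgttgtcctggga
CCNH: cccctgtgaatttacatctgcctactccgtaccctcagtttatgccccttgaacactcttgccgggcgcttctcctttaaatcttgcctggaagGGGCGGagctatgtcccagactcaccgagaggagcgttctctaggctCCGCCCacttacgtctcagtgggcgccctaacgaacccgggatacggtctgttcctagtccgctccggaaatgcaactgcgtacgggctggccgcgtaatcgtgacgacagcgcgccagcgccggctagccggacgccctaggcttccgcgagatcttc
ERCC3: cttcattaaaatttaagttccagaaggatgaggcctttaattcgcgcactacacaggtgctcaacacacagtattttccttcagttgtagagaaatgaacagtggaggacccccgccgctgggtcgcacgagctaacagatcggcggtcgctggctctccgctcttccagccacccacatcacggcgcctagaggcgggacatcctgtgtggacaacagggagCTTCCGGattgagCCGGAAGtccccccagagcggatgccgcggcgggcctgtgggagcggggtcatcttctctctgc
GTF2H3: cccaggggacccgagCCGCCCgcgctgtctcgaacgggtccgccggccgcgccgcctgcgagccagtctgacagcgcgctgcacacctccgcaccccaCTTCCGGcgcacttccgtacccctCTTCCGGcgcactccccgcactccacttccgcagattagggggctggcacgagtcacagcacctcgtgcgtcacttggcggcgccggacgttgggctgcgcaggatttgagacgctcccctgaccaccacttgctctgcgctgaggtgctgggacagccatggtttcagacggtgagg
The CDK7 promoter held 1 match to the SP1 letters and the CCNH promoter 2, and neither held the ETS letters. The ERCC3 promoter held 2 ETS matches and the GTF2H3 promoter 2 ETS matches and 1 SP1 match. Of the promoters not shown, those of GTF2H2, called lower in JJN3, and GTF2H1, not called there, also held the ETS letters. A link between letters and changes was not tested.

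In JJN3, all 9 tested members were lower in both THZ1 libraries than in both DMSO libraries, with log2 fold changes from -0.08 to -1.19. For comparison, 41.4% of the 13984 genes tested had both THZ1 libraries below both DMSO libraries. By edgeR's quasi-likelihood test, a gene was called at an adjusted p under 0.05 and a log2 fold change beyond 0.5. Of the 9 members, 3 were called lower (21.3% of all genes tested) and 0 higher (20.6% of all genes tested). None was higher at an unadjusted p under 0.05 or by DESeq2 either, and the share of all genes by these rules was not computed. By adjusted p alone, 7 of 9 were lower, against 30.1% of all genes tested. Without replicate 1 of JJN3 DMSO this count was 4, as CDK7, ERCC2 and GTF2H1 no longer passed, and by DESeq2 it was 5, without CDK7 and GTF2H1. The median log2 fold change was -0.38 over the 9 members and -0.00036 over all genes tested. With total counts in place of TMM the median of all genes was -0.10 in JJN3, and all 9 members kept their sign. In bulk RNA, fewer cells with a transcript and less of it per cell cannot be told apart, and a fall shared by all RNA of a cell does not show.

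All 3 calls in JJN3 were genes of the core, to which most of the tested members belong. CDK7 and CCNH of the kinase module passed the adjusted p and missed the fold limit. ERCC3, the translocase, had 917 and 983 counts in DMSO against 531 and 605 in THZ1. Its mean fell from 48.9 ± 2.05 to 33.1 ± 0.826 CPM (scaled by TMM, here and below), a log2 fold change of -0.55 ± 0.09 (SE; edgeR adjusted p = 3.44e-04). GTF2H3, the p34 subunit of the scaffold, had 777 and 851 counts in DMSO against 452 and 524 in THZ1. Its log2 fold change was -0.55 ± 0.10 (edgeR adjusted p = 5.85e-04), from 41.9 ± 2.40 to 28.4 ± 1.06 CPM. GTF2H3 overlaps EIF2B1 on the other strand, and reads from that stretch cannot be assigned. GTF2H2, the p44 subunit that regulates ERCC2, had 52 and 76 counts in DMSO against 22 and 27 in THZ1, a log2 fold change of -1.19 ± 0.30 (edgeR adjusted p = 5.55e-03). Its copy GTF2H2C, with 131 and 152 against 54 and 64 counts, had a log2 fold change of -1.07 ± 0.20 (edgeR adjusted p = 7.82e-04), and reads shared by the copies were left out. Without replicate 2 of JJN3 DMSO, ERCC3 alone of the 3 was still called, since GTF2H2 had an adjusted p of 0.0817 by edgeR and GTF2H3 a log2 fold change of -0.499.

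ERCC2, the helicase, passed the adjusted p but not the fold limit in JJN3. It had 603 and 597 counts in DMSO against 376 and 438 in THZ1, a log2 fold change of -0.37 ± 0.10 (edgeR adjusted p = 8.42e-03). GTF2H1, the p62 subunit, had 1789 and 1773 counts in DMSO against 1298 and 1428 in THZ1, with a log2 fold change of -0.19 ± 0.08 at the edge of the threshold (edgeR adjusted p = 0.0487). GTF2H5, the small p8 subunit, had 421 and 462 counts in DMSO against 307 and 338 in THZ1, and did not pass the test (log2 fold change -0.26 ± 0.11, edgeR adjusted p = 0.0639). GTF2H4 had 3 and 4 counts in DMSO against 1 and 0 in THZ1, and no fold change is given.

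No gene of the kinase module was called in JJN3, although CDK7 and CCNH passed the adjusted p. With total counts CCNH was called too (log2 fold change -0.50, edgeR adjusted p = 3.08e-04). CDK7 had 510 and 466 counts in DMSO against 297 and 358 in THZ1, so the groups did not overlap. Its log2 fold change was -0.38 ± 0.11, to 0.766 of the DMSO level, and it passed the adjusted p but not the fold limit (edgeR adjusted p = 0.0129). This pass was lost without replicate 1 of JJN3 DMSO (edgeR adjusted p = 0.122) and by DESeq2 (adjusted p = 0.0536). CCNH had 1602 and 1695 counts in DMSO against 1070 and 1116 in THZ1, with nearly the same log2 fold change as CDK7, -0.40 ± 0.08 (edgeR adjusted p = 1.44e-03). MNAT1 had 903 and 921 counts in DMSO against 750 and 760 in THZ1, which scaled to 47.0 ± 0.320 and 44.1 ± 2.55 CPM. MNAT1 did not pass the test (log2 fold change -0.08 ± 0.09, edgeR adjusted p = 0.469).

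**Figure D1:**
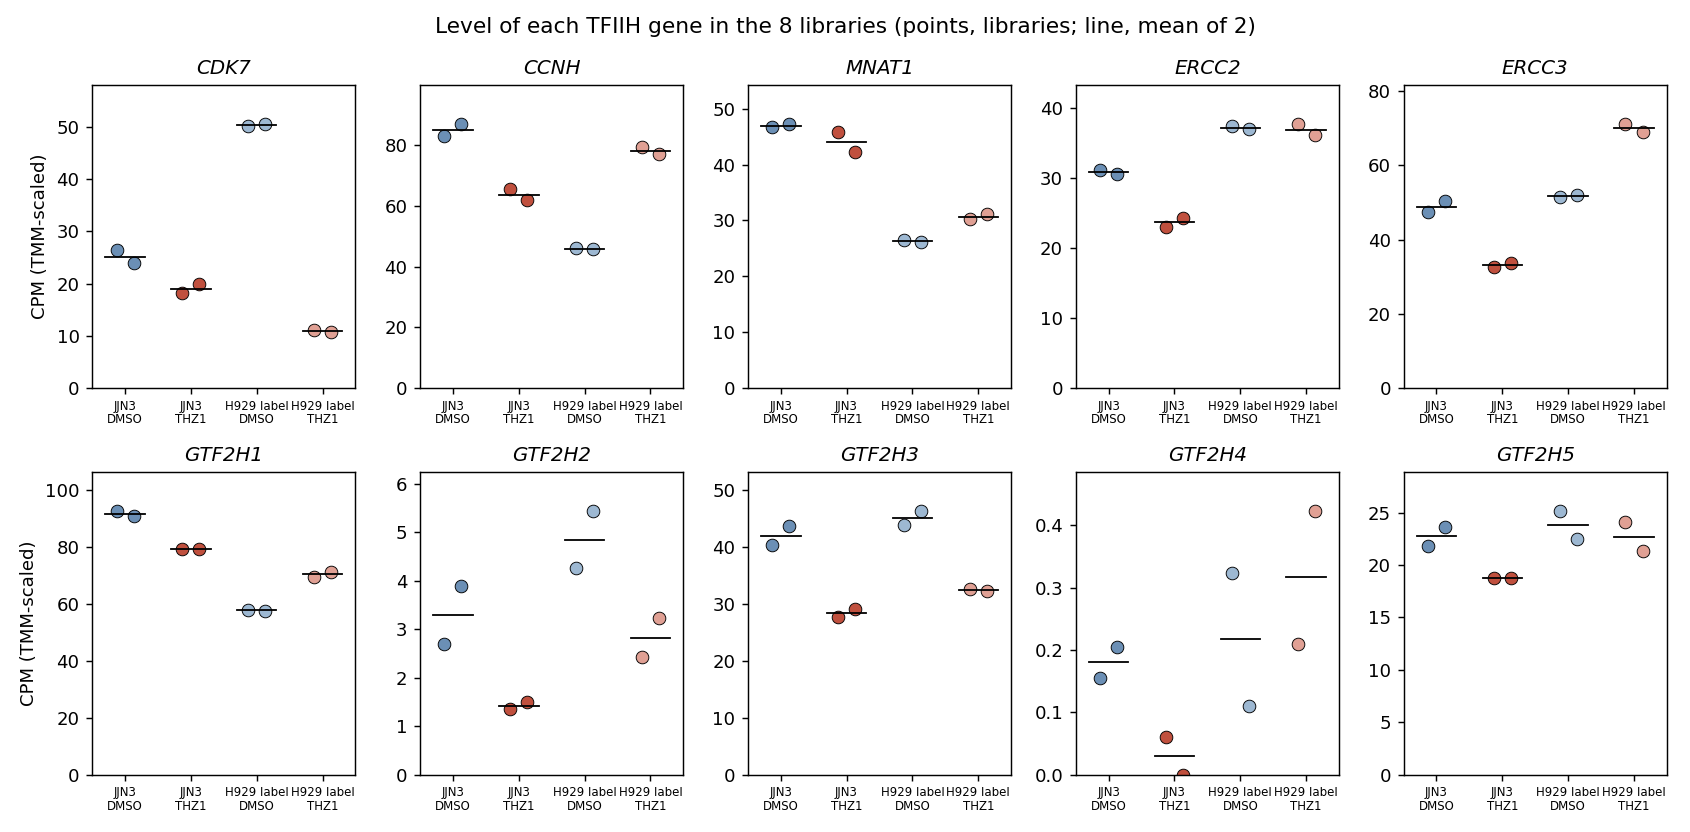
Level of each of the 10 TFIIH genes in CPM (TMM-scaled, vertical axes start at 0) in the 4 groups, with 1 point per library and a line at the mean of the 2. In JJN3 the THZ1 points of all genes lie below the DMSO points. CDK7 is at 50.3 CPM under the H929 DMSO label and 10.9 under the H929 THZ1 label, and CCNH at 45.9 and 78.2 CPM.

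Between the libraries labelled H929, CDK7 was the member that differed most, and its cyclin differed in the other direction. CDK7 had 931 and 911 DMSO-labelled counts against 212 and 201 THZ1-labelled counts. The THZ1-labelled libraries were 4.60-fold lower, with a log2 fold change of -2.20 ± 0.09 (edgeR adjusted p = 1.78e-12), and the groups lay far apart. Of all genes tested between these labels, 9.58% had a still lower log2 fold change. CCNH had 855 and 827 DMSO-labelled counts against 1510 and 1460 THZ1-labelled counts, a log2 fold change of 0.77 ± 0.06 (edgeR adjusted p = 1.38e-08). As the light chains differ between the labels, these are differences between libraries and cannot be read as responses to THZ1.

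Of the 9 members tested between the H929 labels, CDK7 and GTF2H2 were called lower, 2 of 9 against 32.6% of all genes tested. CCNH was called higher, 1 of 9 against 33.1% of all genes tested. By adjusted p alone, 3 of 9 were lower and 4 higher, against 40.9% and 41.0% of all genes tested. GTF2H2 had 79 and 98 DMSO-labelled counts against 46 and 61 THZ1-labelled counts, with a log2 fold change of -0.77 ± 0.22 (edgeR adjusted p = 4.17e-03). This call was lost without replicate 2 of H929 DMSO (edgeR adjusted p = 0.0743) and without replicate 1 of H929 THZ1 (edgeR adjusted p = 0.0582). GTF2H2C had 172 and 145 DMSO-labelled counts against 74 and 67 THZ1-labelled counts, a log2 fold change of -1.21 ± 0.17 (edgeR adjusted p = 6.21e-06).

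No other core gene was called between the H929 labels. ERCC3, with 955 and 937 DMSO-labelled counts against 1352 and 1308 THZ1-labelled counts, was higher by adjusted p alone (log2 fold change 0.45 ± 0.06, edgeR adjusted p = 8.97e-06). GTF2H3, with 813 and 834 against 620 and 611 counts, was lower by adjusted p alone (log2 fold change -0.47 ± 0.07, edgeR adjusted p = 2.98e-05). GTF2H1 and MNAT1 had log2 fold changes of 0.29 ± 0.06 and 0.23 ± 0.08, with edgeR adjusted p of 4.85e-04 and 0.0179. The groups overlapped for ERCC2, with 695 and 668 against 717 and 685 counts, and for GTF2H5, with 467 and 405 against 459 and 403 counts. GTF2H4 had 6 and 2 DMSO-labelled counts against 4 and 8 THZ1-labelled counts.

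**Figure D2:**
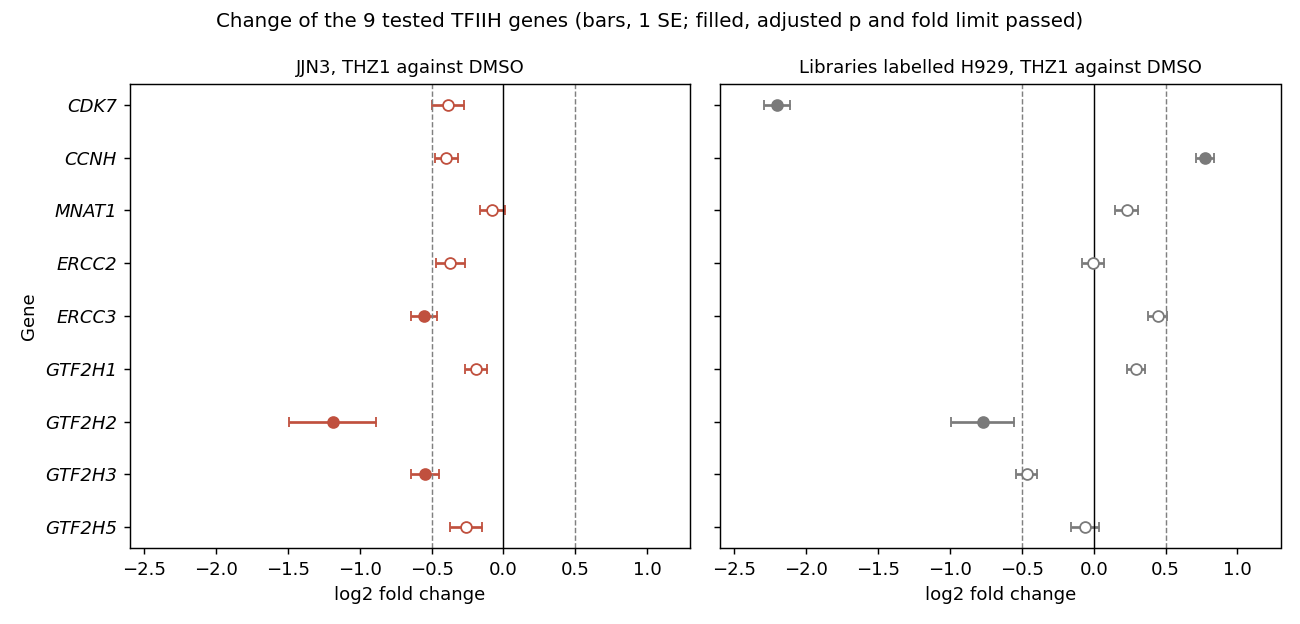
Log2 fold change of THZ1 against DMSO for the 9 tested TFIIH genes in JJN3 and between the libraries labelled H929, with bars of 1 SE. Filled points passed the adjusted p and the fold limit of 0.5 (dashed lines), and all JJN3 values lie left of 0, from -0.08 for MNAT1 to -1.19 for GTF2H2.

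The difference between both sets of libraries was tested as an interaction term fitted to the 8 libraries. CDK7 was lower in the H929 label difference than in JJN3 by 1.81 on the log2 scale (log2 difference -1.81 ± 0.14, edgeR adjusted p = 1.35e-08), 1 of 9 members against 25.5% of all genes tested. CCNH (log2 difference 1.18 ± 0.10, edgeR adjusted p = 4.34e-08) and ERCC3 (1.00 ± 0.11, edgeR adjusted p = 5.25e-07) lay above, 2 of 9 members against 28.1% of all genes tested. By adjusted p alone, 5 of 9 lay above, against 32.3% of all genes tested. GTF2H1 lay at the limit, with a log2 difference of 0.50 ± 0.10 (edgeR adjusted p = 3.06e-04). For GTF2H2, GTF2H3 and GTF2H5 the interaction did not pass the test (log2 differences 0.43 ± 0.39, 0.09 ± 0.12 and 0.21 ± 0.15). These differences also contain whatever else differs between the H929-labelled cells, so treatment and origin of the cells cannot be told apart in them.

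Over the 4 groups, CDK7 ranged from 10.9 to 50.3 CPM. Its mean level was 50.3 ± 0.275 CPM in the H929 DMSO label, 25.1 ± 1.78 in JJN3 DMSO, 19.0 ± 1.23 in JJN3 THZ1 and 10.9 ± 0.372 in the H929 THZ1 label, and neighbours in this order did not overlap. Between the DMSO groups, H929-labelled libraries were above JJN3 by a log2 fold change of 1.00 ± 0.09 (edgeR adjusted p = 3.69e-08), in a comparison where 61.5% of all genes were called in either direction. Between the THZ1 groups, they were below JJN3 by 0.81 on the log2 scale (log2 fold change -0.81 ± 0.11, edgeR adjusted p = 4.59e-06), where 63.9% of all genes were called. The mean of CCNH was highest in JJN3 DMSO, at 84.9 ± 2.78 CPM, then came the H929 THZ1 label at 78.2 ± 1.59. The step between these groups did not pass the test (log2 fold change -0.12 ± 0.07, edgeR adjusted p = 0.137). JJN3 THZ1 followed at 63.8 ± 2.39 CPM and the H929 DMSO label at 45.9 ± 0.125. MNAT1 was lower in both H929 labels, at 26.3 ± 0.263 and 30.7 ± 0.666 CPM, than in JJN3.

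The ratio of CDK7 to CCNH shows this within each library, whatever the scaling. The number of CDK7 counts for each CCNH count was 0.318 and 0.275 in JJN3 DMSO and 0.278 and 0.321 in JJN3 THZ1, so the groups overlapped. It was 1.09 and 1.10 under the H929 DMSO label and 0.140 and 0.138 under the H929 THZ1 label. The ratio of CDK7 to MNAT1 was 0.565 and 0.506 in JJN3 DMSO and 0.396 and 0.471 in JJN3 THZ1, and 1.89 and 1.93 against 0.369 and 0.341 between the H929 labels. The ratio of CCNH to MNAT1 was 1.77 and 1.84 in JJN3 DMSO and 1.43 and 1.47 in JJN3 THZ1, without overlap. Ratios were compared between libraries only, since they are not per length, and were not tested.

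**Figure D3:**
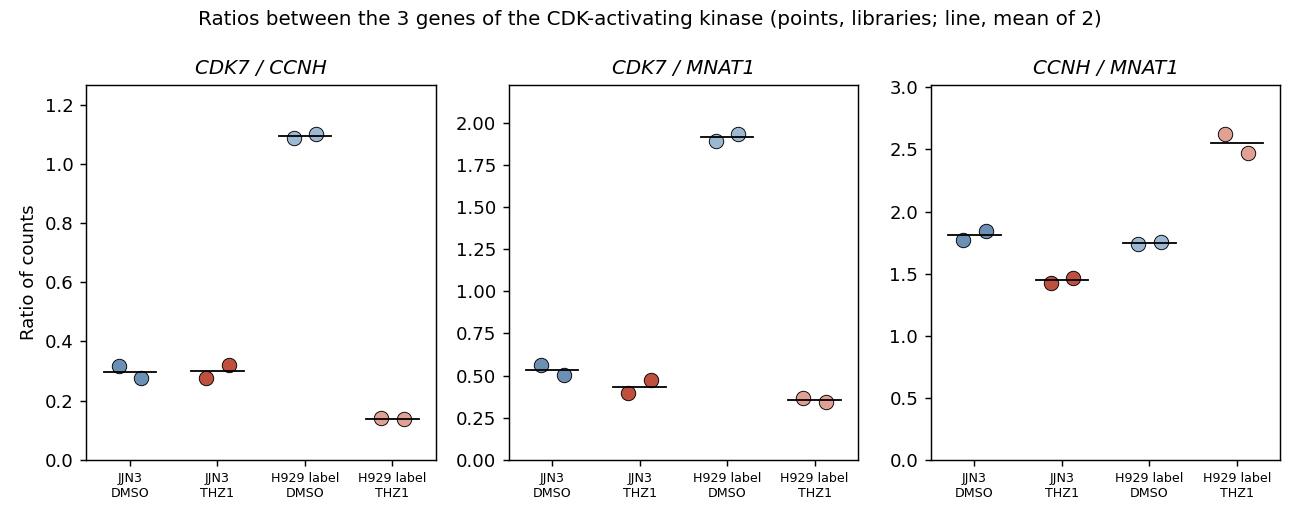
Ratios of counts between CDK7, CCNH and MNAT1 in the 4 groups, with 1 point per library, a line at the mean of the 2 and vertical axes that start at 0. The CDK7 to CCNH ratio averages 0.297 and 0.299 in JJN3 DMSO and THZ1, and 1.10 and 0.139 under the H929 DMSO and THZ1 labels.

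Among 9096 genes with a mean log2 CPM of at least 3, those whose centred log2(CPM + 0.5) over the 8 libraries lay nearest to CDK7 were MAP3K14, the kinase NIK of the noncanonical NF-kB pathway (root mean square difference 0.0857), EMP2 (0.0950) and FAM174B (0.0958). MAP3K14 had 507 and 476 counts in JJN3 DMSO, 318 and 329 in JJN3 THZ1, 856 and 881 under the H929 DMSO label and 204 and 175 under the H929 THZ1 label. Of the 7 other members that met this level, GTF2H3 was nearest at rank 1502 (0.606) and CCNH farthest at rank 6181 (1.05), and GTF2H2 and GTF2H4 were not ranked. The points share lines and treatments, with the H929 label difference as their widest step.

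Genes that overlap a member or start beside it in the annotation were compared with it. No source used here gives the strand setting, so reads from a stretch where genes overlap cannot be assigned. EIF2B1, a subunit of a translation initiation factor, starts 27 bases from GTF2H3 on the other strand and overlaps it. EIF2B1 had 2883 and 3113 counts in JJN3 DMSO and 1941 and 1878 in JJN3 THZ1, a log2 fold change of -0.45 ± 0.09 (edgeR adjusted p = 1.05e-03), beside -0.55 for GTF2H3. Between the H929 labels EIF2B1 did not pass the test (log2 fold change -0.07 ± 0.06). HPS5, which starts 97 bases from GTF2H1, had a log2 fold change of 0.26 ± 0.11 in JJN3 (edgeR adjusted p = 0.0612), and SERAC1, 70 bases from GTF2H5, one of -0.16 ± 0.14 (edgeR adjusted p = 0.347). HPS5 was called higher between the H929 labels (log2 fold change 0.63 ± 0.08, edgeR adjusted p = 1.58e-06), where GTF2H1 was at 0.29, and SERAC1 was called lower (-0.57 ± 0.14, edgeR adjusted p = 1.07e-03), where GTF2H5 was at -0.06. RASA1, a RAS GTPase-activating protein gene that overlaps CCNH on the other strand, was higher with THZ1 in JJN3 by adjusted p alone (log2 fold change 0.36 ± 0.09, edgeR adjusted p = 4.83e-03), where CCNH was lower. Between the H929 labels RASA1 was called higher, as CCNH was (log2 fold change 1.09 ± 0.07, edgeR adjusted p = 5.14e-10).

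The other general transcription factors moved in both directions in JJN3, with 4 of 23 called lower (21.3% of all genes tested) and 3 higher (20.6% of all genes tested), a median log2 fold change of 0.02 and 11 of 23 below 0. TAF12, a subunit of TFIID and SAGA, had 1928 and 1980 counts in DMSO against 710 and 688 in THZ1 (log2 fold change -1.29 ± 0.09). TAF10 and GTF2F2, the small subunit of TFIIF, were also among those called lower, at -0.71 ± 0.14 and -0.68 ± 0.08. GTF2A1, the large subunit of TFIIA, was called higher, with 1970 and 1781 against 3777 and 4177 counts (log2 fold change 1.28 ± 0.08), as were TAF1 (0.61 ± 0.12) and TAF13 (0.56 ± 0.10). All these calls had edgeR adjusted p of 1.30e-03 or less. Between the H929 labels 4 of 23 were called lower (32.6% of all genes tested) and 7 higher (33.1% of all genes tested), among them TAF1 (-1.63 ± 0.08), TBP (-1.42 ± 0.10) and GTF2E2 (1.29 ± 0.07).

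Of 8 genes whose proteins are substrates of CDK7, 2 were called lower and 1 higher in JJN3, beside 21.3% and 20.6% of all genes tested. POLR2A, which carries the C-terminal domain, was higher (log2 fold change 2.32 ± 0.09, edgeR adjusted p = 9.90e-08), with 1819 and 1675 DMSO-labelled counts against 7305 and 7966 THZ1-labelled counts. CDK4 had 1360 and 1521 counts in DMSO against 437 and 634 in THZ1 (log2 fold change -1.24 ± 0.12, edgeR adjusted p = 1.05e-05). CDK2 was lower as well, at -0.70 ± 0.09 (edgeR adjusted p = 5.89e-05). With total counts, or without replicate 1 of JJN3 DMSO, 4 of 8 were called lower. Between the H929 labels, where 32.6% of all genes were called lower and 33.1% higher, CDK4 was called lower (-1.09 ± 0.05) and POLR2A and CDK6 higher (1.00 ± 0.06 and 0.51 ± 0.06), and 1 was called higher without replicate 2 of H929 DMSO or of H929 THZ1.

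Of 17 nucleotide excision repair factors that work with TFIIH, 6 were called lower and 0 higher in JJN3 (21.3% and 20.6% of all genes tested), although 8 of 17 had a log2 fold change below 0 and the median was 0.08. By adjusted p alone 2 were higher, at an unadjusted p under 0.05 4, and by DESeq2 0. The share of all genes that was higher by each of these rules was not computed. The largest falls were ERCC8, the CSA protein of transcription-coupled repair (409 and 453 against 178 and 166 counts, log2 fold change -1.13 ± 0.13), and the single-stranded DNA binding subunits RPA3 (-0.98 ± 0.08) and RPA2 (-0.90 ± 0.09), with edgeR adjusted p of 3.37e-05 or less. Between the H929 labels 3 were called lower (32.6% of all genes tested), RPA3, ERCC8 and CETN2, and 4 higher (33.1% of all genes tested), among them DDB2, a damage sensor (1.65 ± 0.09), and XPA.

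The cytosolic iron-sulfur assembly genes, which load the cluster of ERCC2, had a lower median than all genes in JJN3. Of 8, 4 were called lower, beside 21.3% of all genes tested, and 0 higher, beside 20.6%. At an unadjusted p under 0.05 1 was higher and by DESeq2 0, and no share of all genes was computed for these rules. Of the 8, 7 had a log2 fold change below 0, and the median was -0.53. NUBP1, the scaffold subunit, had 496 and 483 counts in DMSO against 149 and 187 in THZ1 (log2 fold change -1.35 ± 0.12, edgeR adjusted p = 6.72e-06). CIAO1 of the targeting complex and NDOR1 of the electron transfer chain were at -0.62 ± 0.10 and -0.64 ± 0.15 (edgeR adjusted p = 3.21e-04 and 4.06e-03). Without replicate 1 of JJN3 THZ1, 2 of 8 were called lower. MMS19, which binds ERCC2 itself, passed the adjusted p but not the fold limit (-0.45 ± 0.09). Between the H929 labels 3 of 8 were called lower (32.6% of all genes tested), CIAPIN1 (-1.24 ± 0.06), NUBP1 (-0.90 ± 0.10) and CIAO1 (-0.77 ± 0.06), and NARFL was called higher (0.59 ± 0.11, where 33.1% of all genes tested were), with 2 called higher without replicate 2 of H929 DMSO.

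**Figure D4:**
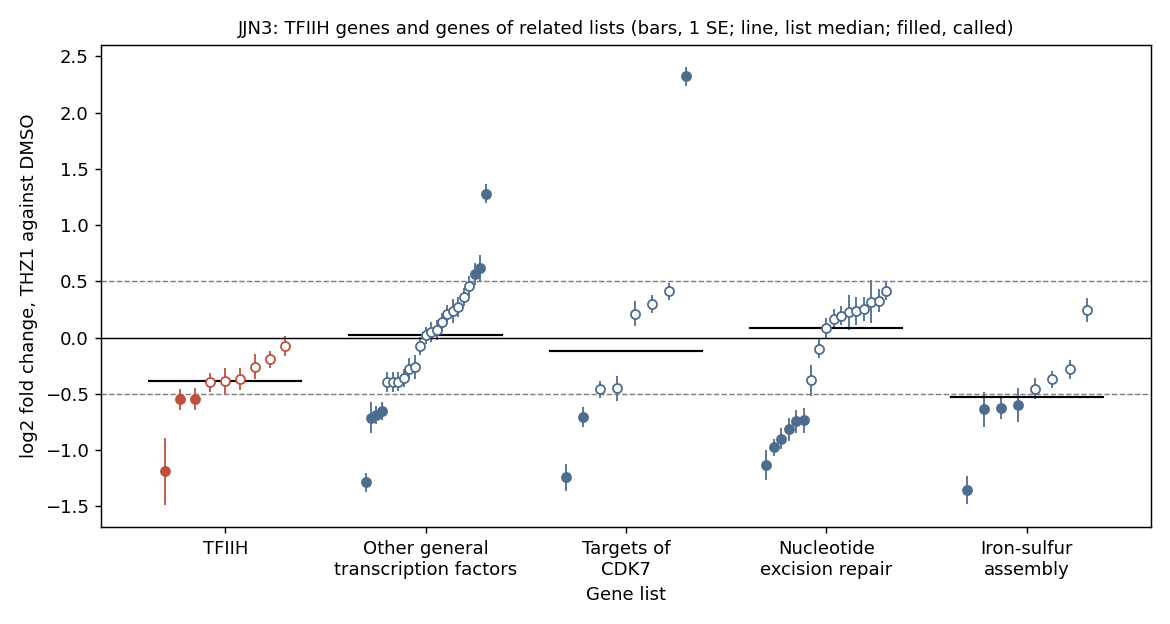
Log2 fold change of THZ1 against DMSO in JJN3 for the 9 tested TFIIH genes and for 4 related gene lists, with bars of 1 SE, filled points for genes called at an adjusted p under 0.05 and a log2 fold change beyond 0.5 (dashed lines), and black lines at list medians. The TFIIH genes lie between -1.19 and -0.08 with their median at -0.38, whereas the other general transcription factors lie on both sides of 0, from -1.29 to 1.28.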

How the data were processed

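Single-end reads of total RNA were aligned by the authors with STAR to hg19, without reads that map to several places. The authors deposited a table of raw featureCounts counts per Ensembl gene for each line. The strand setting is not given in the sources used here. The columns of the authors' own DESeq2 comparisons (fold changes and p-values) were not used, and gene symbols came from the JJN3 table. Groups and replicate numbers followed the sample labels. The TFIIH members and the gene lists were chosen with earlier results of these data known.

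Counts were tested with edgeR 4.0.16 in R 4.3.3 (TMM, filterByExpr, quasi-likelihood test, Benjamini-Hochberg over all genes tested), within each line and as an interaction over all 8 libraries. The SE is the log2 fold change divided by the root of its F statistic. An exact permutation test of 2 against 2 libraries cannot go below p = 0.333. Positions, lengths and 50-base windows came from GENCODE v44 mapped to GRCh37, which may differ in version from the annotation the authors used.

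Named genes were all members, copies of GTF2H2, overlapping genes or genes starting within 1000 bases, up to 3 called falls and rises per list and the 3 genes nearest to CDK7. MMS19 was added after its values were seen. Alternatives were DESeq2 1.42.0, its size factors, total counts, no filter, a filter at 1 CPM in 2 libraries, a joint fit of all 8, a replicate block, other call limits, other gene lengths and leaving out each library.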

Additional observations from a re-analysis of the deposited data

Results flagged for a closer look

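For 3 members the log2 fold change between the H929 labels differed from that of JJN3 past both limits in the interaction test of edgeR. The difference was -1.81 for CDK7 (adjusted p = 1.35e-08), 1.18 for CCNH (adjusted p = 4.34e-08) and 1.00 for ERCC3 (adjusted p = 5.25e-07), all by edgeR. Leaving out each library in turn gave -1.87 to -1.72 for CDK7, 1.16 to 1.24 for CCNH and 0.98 to 1.06 for ERCC3. Treatment and the origin of the cells cannot be told apart in these differences.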

How the results depend on the processing

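Of the log2 fold changes of members in JJN3, none reversed in any alternative run. With the adjusted p alone 7 members were lower in JJN3 (30.1% of all genes tested), 4 were higher between the H929 labels (41.0%) and 5 lay above in the interaction (32.3%). Over the alternatives, the JJN3 count by adjusted p alone ran from 4, without replicate 1 of JJN3 DMSO, to 8, with total counts. With a log2 fold change beyond 1, 1 member was lower in JJN3, and between the H929 labels 1 was lower and 0 higher. The share of all genes at this limit was not computed, so these counts only describe the members. By adjusted p alone, 9 general transcription factors were lower in JJN3 and 7 higher (4 and 3 with the fold limit). The CDK7 substrates came to 4 and 3 (2 and 1) and the repair factors to 7 and 2 (6 and 0). The iron-sulfur assembly genes came to 7 and 0 (4 and 0). Of all genes tested, 30.1% were lower by this rule. The share that was higher was not computed, so the higher counts cannot be set against it. DESeq2 and the fit without a filter each called 1 member lower between the H929 labels, because GTF2H2 missed the threshold (adjusted p = 0.0693 and 0.0565). With total counts 4 members were lower in JJN3, as CCNH passed the fold limit, and 4 lay above in the interaction, where the median of all genes moved from 0.04 to 0.18. Leaving out each library in turn, 1 to 3 members were lower in JJN3 and 1 to 3 between the H929 labels. The sign of ERCC2 between the H929 labels reversed from -0.0051, to 0.018 with DESeq2, 0.020 with its size factors and 0.044 with total counts, and ran from -0.024 to 0.032 without each library. GTF2H5 ran from -0.144 to 0.033 there. Neither passed the test in any of these. Samples with the same replicate number did not deviate together (correlations 0.00335 in JJN3 and -0.0121 between the H929 labels), and with the replicate number as a block 3 members were lower in JJN3 and 2 between the H929 labels, as without it, while GTF2H1 in JJN3 had an edgeR adjusted p of 0.0582. GTF2H2 is limited by reads shared with its copies and GTF2H4 by its low counts.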
